A study of Mus musculus with 6 samples.

Results

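Notch signaling and the arterial program of blood vessels were followed here through 10 genes of the 24421 in the deposited gene table. They were taken by name, as the receptors Notch1 and Notch4, the ligands Dll1, Dll4, Jag1 and Jag2, the transcriptional targets Hey1, Hey2 and Hes1, and the arterial gap junction gene Gja5, by a rule that uses no measured value, though this choice of genes was made with earlier results of these data known. All 10 were found in the table. RNA-seq of mouse blood endothelial cells (BECs) and lymphatic endothelial cells (LECs) was used to ask how the histone H3K79 methyltransferase Dot1l acts on the endothelial transcriptome. The skin BECs came from embryos at E15.5, either Tie2-Cre(+); Dot1l 2f/2f (cKO) or Tie2-Cre(−); Dot1l 2f/2f littermates (Cont), so that both groups carried the floxed Dot1l allele on both chromosomes and differed in the Cre transgene. They were sorted as negative for F4/80, CD45 and Lyve1, and a figure legend of the paper also lists CD31 as a positive marker. Each library held RNA pooled from 2 to 3 embryos. In the other experiment, 1 cultured mouse embryonic yolk sac BEC line and 1 preparation of cultured mouse embryonic dermal LECs received a lentivirus. It carried dCas9-VP64, a transcriptional activator, and guides to the Dot1l promoter (OE-BECs, OE-LECs), or was empty (Cont). GFP-positive cells of 2 to 3 flasks made up each library. Tie2-Cre drives recombination in endothelial cells, and as background it is also active in blood-forming cells. Each of the 6 groups had 1 library, so no comparison below carries a test of the condition or a replicate error, and every 95% interval covers counting error only.

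Notch receptors are cut when a ligand of the Delta or Jagged family on a neighbouring cell binds them, and the freed intracellular part joins the DNA-binding protein Rbpj in the nucleus to switch on genes of the Hes and Hey families. In endothelium, Dll4 and Notch1 restrain tip cell formation during sprouting, and Notch activity through Hey1 and Hey2 is a hallmark of arterial identity. Jag1 can oppose Dll4 in sprouting vessels, and Gja5 encodes connexin 40, a gap junction protein of arterial endothelium.

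The promoters of Dll4, Hey2 and Gja5, 3 of the members whose counts passed the threshold in OE-BECs, are given here as RefSeq gives them for GRCm38.p6, from 250 bases before the start site to 50 bases from it on. Capitals mark the letters TGGGAA or, read on the other strand, TTCCCA, the core bound by Rbpj.
Dll4, plus strand, chr2:119325534-119325833: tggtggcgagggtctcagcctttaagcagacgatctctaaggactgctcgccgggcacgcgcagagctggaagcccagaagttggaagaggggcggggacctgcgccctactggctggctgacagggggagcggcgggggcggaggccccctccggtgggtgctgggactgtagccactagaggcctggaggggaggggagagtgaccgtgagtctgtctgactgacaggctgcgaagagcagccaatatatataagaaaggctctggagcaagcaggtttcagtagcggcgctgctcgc
Gja5, plus strand, chr3:97032152-97032451: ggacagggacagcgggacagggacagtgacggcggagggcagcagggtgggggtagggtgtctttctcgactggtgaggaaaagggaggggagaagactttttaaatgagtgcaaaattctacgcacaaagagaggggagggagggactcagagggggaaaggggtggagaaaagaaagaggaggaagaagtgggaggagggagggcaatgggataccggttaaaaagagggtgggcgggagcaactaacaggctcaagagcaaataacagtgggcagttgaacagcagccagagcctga
Hey2, minus strand, chr10:30842734-30843033: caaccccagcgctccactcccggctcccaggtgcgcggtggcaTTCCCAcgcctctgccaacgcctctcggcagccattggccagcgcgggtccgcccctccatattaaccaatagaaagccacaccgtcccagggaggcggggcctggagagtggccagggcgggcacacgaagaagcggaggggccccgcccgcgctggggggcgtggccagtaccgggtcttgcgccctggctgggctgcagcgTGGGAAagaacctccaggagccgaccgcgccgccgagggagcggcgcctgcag
Of the 10 members, 8 had a promoter in the RefSeq table, with 9 windows in all because Dll1 had 2, and Hes1 and Hey1 had none there. Only the Hey2 window held the Rbpj letters, starting 207 bases before the start site in the form TTCCCA and 3 bases before it in the form TGGGAA. Of 32851 mouse promoter windows of the same length, 25.6% held these letters on either strand. The letters CACGTG, an E-box read alike on both strands and bound by Hey and Hes factors, stood in none of the 9 windows and in 7.15% of all windows. The SOX core ACAAT, or ATTGT on the other strand, stood in the windows of Jag1, Notch4 and Dll1 and in 31.0% of all windows. A match describes the letters of the window and does not show that the site is bound.

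The libraries held between 8863349 and 31032461 gene-assigned reads, and levels are given as CPM, the reads of a gene per 1000000 of these reads. Where a fold was taken against a count of 0, a floor of 3 reads stood in for it, which is between 0.0967 and 0.338 CPM. Dot1l itself stood at 86.0 CPM in Cont skin BECs and 85.2 CPM in the library labelled cKO, and at 112 CPM against 302 CPM in cultured BECs and 95.3 CPM against 217 CPM in LECs without and with the guides. For the knockout, the paper reports a check of Dot1l by RT-qPCR, without replicates. All 6 libraries held reads of each of the 12 blood and pan-endothelial markers. The skin libraries also held 883 to 1304 reads of Prox1 and 9105 to 19959 reads of Lyve1, both lymphatic genes, although Lyve1-positive cells were sorted away. Prox1 had no read in any cultured library, the cells labelled LECs included, and Mmrn1, another lymphatic gene, had 0 to 5 reads there. Lyve1, in contrast, was read in every cultured library. It was highest with LECs, at 1998 CPM without the guides and 1962 CPM with them. The cultured BEC pair held 604 CPM without the guides and 1061 CPM with them. For the skin pair, Lyve1 was 1027 CPM in Cont and 1801 CPM in cKO. Macrophage markers reached 3885 summed CPM in Cont skin BECs and 6224 in cKO skin BECs, and all 12 were higher in the cKO library, against 34.6 to 94.7 summed CPM in the cultured libraries. Pericyte and smooth muscle markers summed to 871 and 730 CPM in the skin libraries, and fibroblast markers to 2842 and 2083 CPM, while in the cultured libraries these lists summed to between 5.51 and 6.75 CPM and between 2.83 and 20.5 CPM. Keratinocyte markers summed to 292 and 449 CPM in the skin libraries and to 6.75 to 9.73 CPM in culture.

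Both receptor genes were read deeply in every library. Notch1 (chromosome 2, 26457903 to 26516663, minus strand, in mm10 as annotated by GENCODE M21) had 330 CPM in Cont skin BECs, 277 in cKO skin BECs, 519.8 in Cont cultured BECs, 438 in OE-BECs, and 302 in LECs without and 272 with the guides. The cultured BECs held the highest levels, and only cKO skin BECs and OE-LECs could not be separated by counting error. Notch4 (chromosome 17, 34564268 to 34588503, plus strand), a receptor largely restricted to endothelium, had 114 CPM in Cont skin BECs, 76.8 in cKO skin BECs, 403 in Cont cultured BECs, 307 in OE-BECs, and 311 in LECs without and 282 with the guides. Every cultured library lay above both skin libraries, Cont cultured BECs held 3.52-fold the level of Cont skin BECs, and OE-BECs and Cont LECs were within counting error of each other.

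Per kilobase of exon, the 4 Notch receptors were spread more evenly in skin than in culture. In Cont skin BECs, Notch1 made up 36.1% of the receptor reads per kilobase, Notch4 22.1%, Notch2 21.4% and Notch3 20.4%. In the 4 cultured libraries, Notch4 made up 50.9% to 61.4% and Notch1 32.7% to 41.2%, while Notch3, a receptor of pericytes and smooth muscle, made up at most 0.0340%. Notch3 counted 941 and 858 reads in the skin libraries and 0 to 5 in the cultured ones. The pericyte markers differed between skin and culture in the same direction, and their part in the receptor mix was not tested. In cKO skin BECs, Notch2 made up 36.3% and Notch1 32.2%, an order that turned to 30.9% and 39.96% when lengths were taken from the longest transcript instead of all exons. With those lengths, Notch4 and Notch1 made up 51.6% and 46.2% in Cont cultured BECs and 47.1% and 46.7% in OE-BECs. For LECs, these shares were 57.4% and 38.8% without the guides and 56.4% and 37.7% with them.

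Among the ligands, Dll4 (chromosome 2, 119325784 to 119335962, plus strand), the main endothelial Delta ligand, differed widely between libraries. It had 80.8 CPM in Cont skin BECs, 63.2 in cKO skin BECs, 154 in Cont cultured BECs, 45.6 in OE-BECs, and 65.8 in LECs without and 30.4 with the guides. Each OE library was below its own control, and cKO skin BECs and Cont LECs were within counting error of each other. Dll1 (chromosome 17, 15367354 to 15376872, minus strand), a Delta ligand also used in arteries, had 36.1 CPM in Cont skin BECs, 29.9 in cKO skin BECs, 22.4 in Cont cultured BECs, 17.5 in OE-BECs, and 15.6 in LECs without and 34.0 with the guides. The OE-LEC library alone among the cultured ones reached the level of the skin libraries, and it was within counting error of Cont skin BECs. OE-BECs and Cont LECs, the lowest in the order, were also within counting error of each other.

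Jag1 (chromosome 2, 137081456 to 137116644, minus strand) had 182 CPM in Cont skin BECs, 204 in cKO skin BECs, 107 in Cont cultured BECs, 84.7 in OE-BECs, and 99.5 in LECs without and 119 with the guides. Skin held more than culture, and the ratio of each library to the next in the order had a counting interval off 0. Jag2 (chromosome 12, 112907819 to 112929776, minus strand), the second Jagged ligand, had 62.6 CPM in Cont skin BECs, 53.8 in cKO skin BECs, 18.04 in Cont cultured BECs, 7.61 in OE-BECs, and 17.2 in LECs without and 8.99 with the guides. Cont cultured BECs and Cont LECs were within counting error of each other, and so were OE-BECs and OE-LECs, with both OE libraries below both of their controls.

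The mix of the 4 ligands, as shares of their summed reads per kilobase, is drawn beside that of the receptors. Dll4 made up 60.4% in Cont cultured BECs and 37.4% in OE-BECs, while Jag1 made up 27.7% and 46.0%. In LECs, Dll4 made up 42.4% in Cont LECs and 20.9% in OE-LECs, Dll1 9.18% and 21.4%, and Jag1 42.3% and 54.3%. In skin, Jag1 led in both libraries, with 44.8% in Cont and 52.8% in cKO, ahead of Dll4 with 30.1% and 24.8%. A share describes the mix within 1 library and needs no scaling between libraries.

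**Figure D1:**
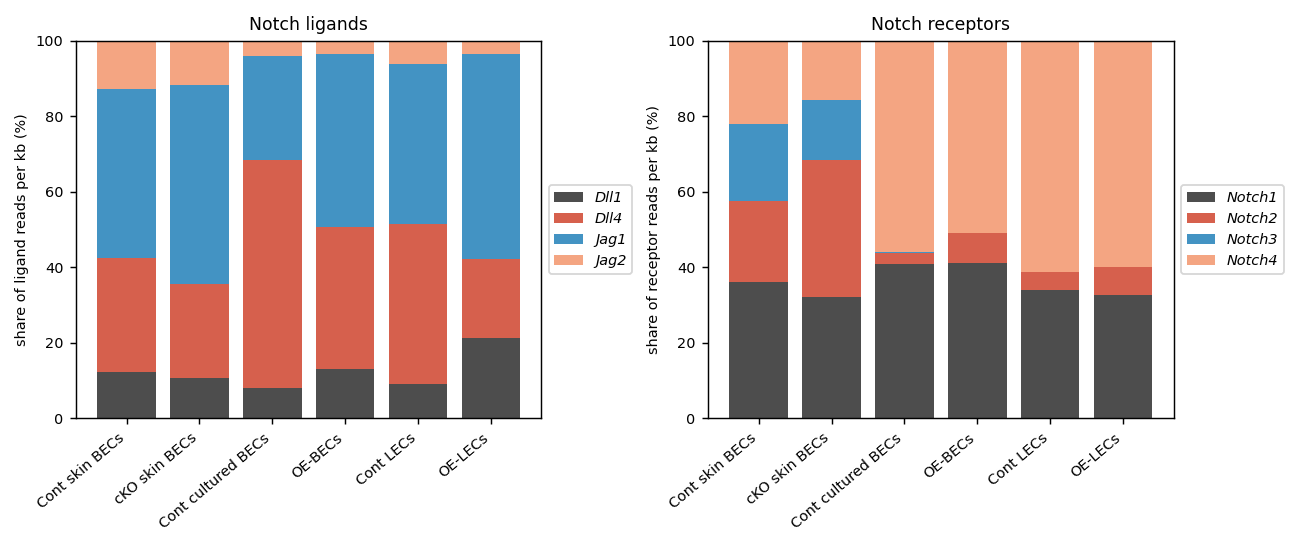
Stacked bars of the share, in percent, of each ligand (Dll1, Dll4, Jag1, Jag2) and each receptor (Notch1 to Notch4) in the summed reads per kilobase of exon, for the 6 libraries with 1 library per bar. Dll4 takes 60.4% of the ligands in Cont cultured BECs and 37.4% in OE-BECs, and 42.4% and 20.9% in the LEC libraries, and Notch3 is visible in the skin libraries only.

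Hey1, Hey2 and Gja5 parted skin from culture widely, and Hes1 did so less. Hey1 (chromosome 3, 8663359 to 8667256, minus strand), a transcriptional repressor switched on by Notch, counted 390 reads or 44.0 CPM in Cont skin BECs, 325 or 29.3 CPM in cKO skin BECs, 51 or 2.88 CPM in Cont cultured BECs, 10 or 0.718 CPM in OE-BECs, and in LECs 8 or 0.306 CPM without and 2 or 0.0644 CPM with the guides. Its level in Cont skin BECs was 15.3-fold that in Cont cultured BECs and 144-fold that in Cont LECs, and at the bottom of the order Cont LECs were within counting error of OE-BECs and of OE-LECs. Hey2 (chromosome 10, 30832359 to 30842801, minus strand), its arterial relative, counted 134 reads or 15.1 CPM in Cont skin BECs and 106 or 9.56 CPM in cKO skin BECs, but 4 reads in Cont cultured BECs, 0 in OE-BECs, and 0 and 1 in LECs without and with the guides. With a floor of 3 reads in place of the 0 reads of Cont LECs, the level in Cont skin BECs was 132-fold higher. The counting interval of the log2 ratio of Cont LECs over Cont skin BECs ended at -6.72, which is a smaller difference.

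Gja5 (chromosome 3, 96904693 to 97077416, plus strand) counted 508 reads or 57.3 CPM in Cont skin BECs, 718 or 64.8 CPM in cKO skin BECs, 38 or 2.15 CPM in Cont cultured BECs, 6 in OE-BECs, and 3 in each LEC library. Cont skin BECs held 26.7-fold the level of Cont cultured BECs, and Cont LECs were within counting error of OE-BECs and of OE-LECs. Hes1 (chromosome 16, 30064384 to 30067796, plus strand), a Notch target that many other signals also induce, had 91.3 CPM in Cont skin BECs, 75.9 in cKO skin BECs, 47.5 in Cont cultured BECs, 32.4 in OE-BECs, and 19.5 in LECs without and 23.1 with the guides. It was present throughout, and the skin level was 1.92-fold that of Cont cultured BECs and 4.69-fold that of Cont LECs. Per 1000 reads of the 12 blood and pan-endothelial markers, Hey1 gave 6.50 reads in Cont skin BECs against 0.315 in Cont cultured BECs, and Gja5 gave 8.47 against 0.235. Tissue, culture and cell mix all differ between these libraries and cannot be told apart.

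**Figure D2:**
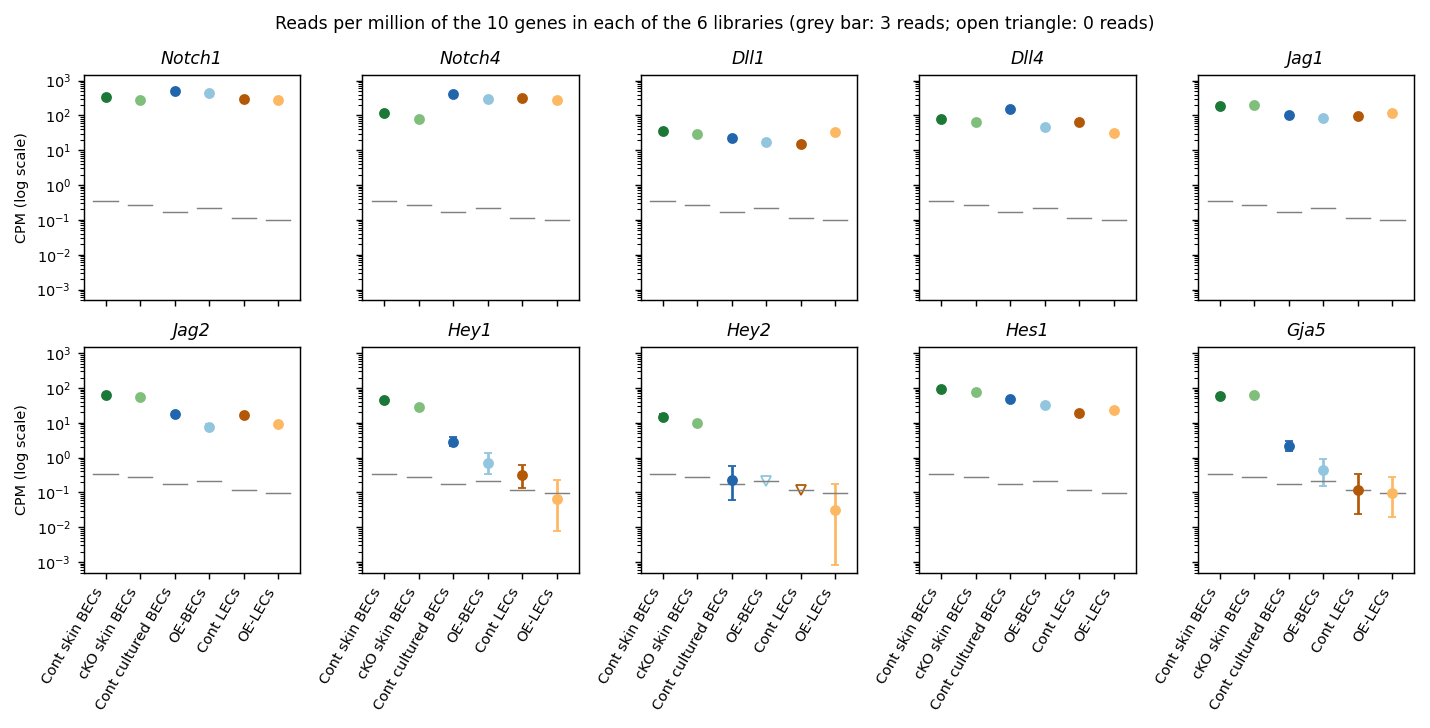
Level of each of the 10 members in each of the 6 libraries, in CPM on a log axis, with 1 point per library and bars for the exact 95% counting interval. Hey1, Hey2 and Gja5 lie between 9.56 and 64.8 CPM in skin and below 3 CPM in culture, while Notch1, Notch4, Jag1 and Hes1 are present in all 6 libraries.

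The libraries labelled cKO and Cont skin BECs, between which the Dot1l counts given above did not fall, were set against each other after scaling by the median of ratios. A gene was called where its larger scaled count was at least 5 and more than 3-fold the smaller one. None of the 10 members was called in either direction, where 5.17% of the 15993 genes that reached the minimum were called higher and 2.41% lower. None was past 2-fold either, where 3.54% of the 10212 genes with at least 100 scaled counts were more than 2-fold higher and 2.06% more than 2-fold lower. The log2 ratios of cKO over Cont lay between -0.72 and 0.12, with a median of -0.33 over the 10 members and of -0.04 over the 10212 genes.

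Within that range, 8 members were lower in the cKO library beyond counting error, and how many of all genes were so was not counted. Of the 10212 genes, 4.95% had a ratio as low as that of Hey2, 14.7% as low as Dll4 and 24.7% as low as Jag2. Hey2 had the lowest log2 ratio, -0.72 (95% interval -1.10 to -0.34), followed by Hey1 at -0.64 (-0.86 to -0.42) and Notch4 at -0.63 (-0.76 to -0.50). Dll4 stood at -0.41 (-0.56 to -0.26), while Dll1, Hes1, Notch1 and Jag2 lay between -0.33 and -0.28. Jag1 was the single member with an interval above 0, at 0.11 (0.01 to 0.20), and the interval of Gja5 held 0, at 0.12 (-0.04 to 0.29). The arterial gap junction gene and the arterial Hey genes thus did not lie on the same side of 0 in this pair of libraries.

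The share of endothelial reads differed between these libraries. The 12 blood and pan-endothelial markers summed to 6766 CPM in Cont skin BECs and 4398 CPM in cKO skin BECs, and 10 of the 12 were lower in the cKO library. In bulk samples, fewer endothelial cells and less of an RNA per endothelial cell cannot be told apart. Scaling to these summed reads instead adds the same 0.68 to the log2 ratio of every gene. With it, 7 members had an interval above 0 and none below, and how many of all genes did was not counted. Gja5 then stood at 0.80, Jag1 at 0.78 and Dll4 at 0.27, while Notch4 at 0.05, Hey1 at 0.04 and Hey2 at -0.04 had intervals that held 0. No member was called under either scaling.

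In cultured BECs with forced Dot1l expression, 4 members fell and none rose by the same 3-fold threshold, with a minimum of 3 scaled counts. Across all 14792 genes that reached this minimum, 5.27% were called lower and 8.02% higher. Dll4 counted 2717 reads in Cont cultured BECs and 635 in OE-BECs, a log2 ratio of -1.71 (95% interval -1.84 to -1.59) or 3.28-fold lower. It had by far the most reads of the 4, and 1.37% of the 9867 genes with at least 100 scaled counts had a ratio as low. Gja5 counted 38 and 6 reads, a log2 ratio of -2.28 (-3.81 to -1.03) or 4.86-fold lower. Hey1 counted 51 and 10 reads, a log2 ratio of -1.97 (-3.11 to -0.97) or 3.91-fold lower. Hey2 went from 4 reads to 0, or 1.02-fold lower against a floor of 3 reads, and its interval held 0, so this call rests on 4 reads. With the exact test of edgeR at an assumed biological variation of 0.4, 0 of the 4 calls remained, but Hey2 had too few reads to enter it.

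Jag2 did not pass the 3-fold threshold but was lower too, with 319 and 106 reads, a log2 ratio of -1.21 (-1.54 to -0.89) or 2.31-fold. Of the 7 members with at least 100 scaled counts, Dll4 and Jag2 were past 2-fold lower and none past 2-fold higher, where 4.17% of the 9867 genes of that depth were past 2-fold lower and 1.82% past 2-fold higher. Hes1 stood at -0.51 (-0.68 to -0.34). Notch4 at -0.35, Dll1 at -0.32, Jag1 at -0.29 and Notch1 at -0.21 were nearest to 0, each with an interval below 0. The median of the 7 members was -0.35 and that of the 9867 genes -0.02.

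The endothelial markers were lower in OE-BECs as well, with 9157 summed CPM in Cont cultured BECs and 5828 in OE-BECs, and 11 of 12 markers were below 0. Their median log2 ratio was only -0.33 and the lowest was -2.14, whereas scaling to their sum adds 0.61 to every ratio. The sum thus shifts the ratios further than the median marker would. Pericyte and keratinocyte markers summed to under 7 CPM in both libraries. Ribosomal Rn45s took 5.91% of the reads in Cont cultured BECs and 10.9% in OE-BECs, and its part in these ratios was not tested. Scaled to the summed endothelial reads, Dll4 was at -1.10 (-1.23 to -0.98), Jag2 at -0.59, Hey1 at -1.35 and Gja5 at -1.67, so that all 4 remained lower, but only Gja5, at 3.18-fold, remained past 3-fold. Notch1 then stood at 0.41, Jag1 at 0.32, Dll1 at 0.30, Notch4 at 0.26, on the other side of 0, and the interval of Hes1, at 0.10 (-0.07 to 0.27), held 0.

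**Figure D3:**
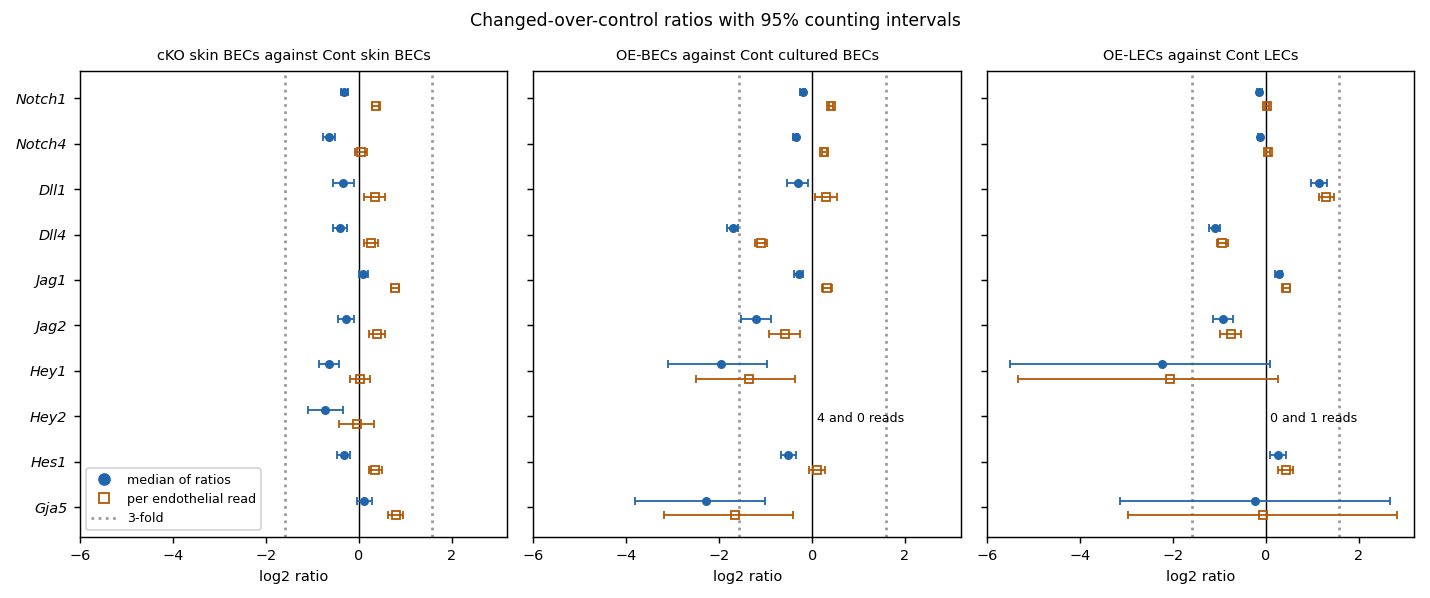
Log2 ratio of each member, changed library over its own control, for cKO skin BECs, OE-BECs and OE-LECs, with 1 library per group and bars for the exact 95% counting interval. In OE-BECs, Dll4 at -1.71, Hey1 at -1.97 and Gja5 at -2.28 lie lowest, and in OE-LECs Dll1 at 1.14 lies on the opposite side of 0 from Dll4 at -1.10.

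In cultured LECs with forced Dot1l expression, 1 of the 10 members was called, Hey1, which went from 8 reads to 2, a log2 ratio of -2.23 with an interval from -5.50 to 0.09 that held 0. Of the 13883 genes that reached 3 scaled counts, 2.77% were called higher and 2.09% lower. Among the 7 members with at least 100 scaled counts, Dll1 was past 2-fold higher and Dll4 past 2-fold lower, where 1.5% and 0.847% of the 10503 genes of that depth were past 2-fold higher and lower. Dll1 counted 408 reads without the guides and 1055 with them, a log2 ratio of 1.14 (0.97 to 1.31) or 2.20-fold higher, and 1.06% of the 10503 genes had a ratio as high. Dll4 counted 1719 and 943 reads, a log2 ratio of -1.10 (-1.21 to -0.98) or 2.14-fold lower, and 0.666% of these genes had a ratio as low. The 2 Delta ligands thus lay near opposite ends of the genes of their depth.

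Jag2 had a log2 ratio of -0.92 (-1.14 to -0.70) in OE-LECs, with 449 and 279 reads. Jag1 was at 0.28 (0.21 to 0.35) and Hes1 at 0.26 (0.10 to 0.43). Notch1 at -0.14 and Notch4 at -0.12 were nearly level, and Hey2 with 0 and 1 reads and Gja5 with 3 and 3 gave no ratio that can be read. The summed endothelial markers differed less here, 7638 CPM in Cont LECs against 6738 in OE-LECs, and scaling to them left Dll1 at 1.30, Dll4 at -0.93, Jag2 at -0.75, Jag1 at 0.44 and Hes1 at 0.43, while Notch1 at 0.03 and Notch4 at 0.04 then had intervals that held 0.

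**Figure D4:**
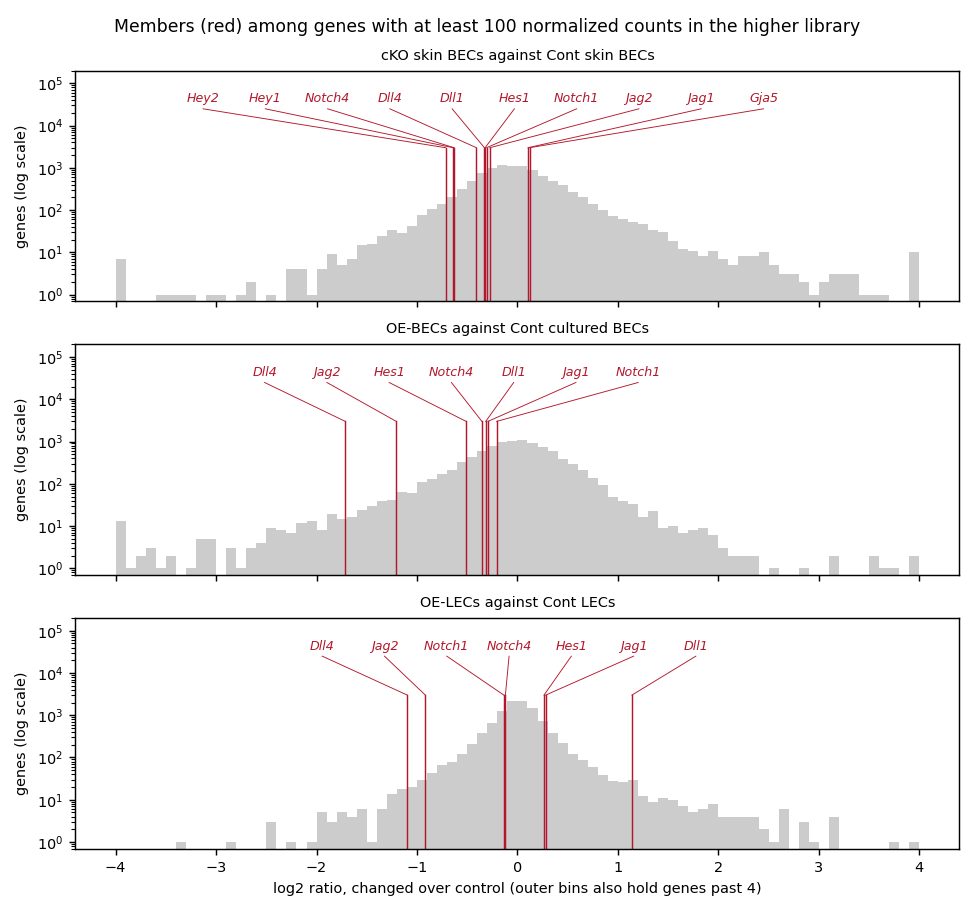
Distribution of the log2 ratios of all genes with at least 100 scaled counts in each of the 3 comparisons, with the members of that depth marked. In OE-BECs 1.37% of genes lie as low as Dll4, and in OE-LECs 0.666% lie as low as Dll4 and 1.06% as high as Dll1.

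The OE-BEC and OE-LEC pairs share no library, and the difference between their log2 ratios was taken for the 7 members with at least 100 scaled counts. Dll4 and Jag2 were lower in both cell types, Dll4 by 0.62 less on the log2 scale in OE-LECs (interval 0.45 to 0.79), while for Jag2 the interval of the difference, -0.09 to 0.67, held 0. Dll1 was lower in OE-BECs and higher in OE-LECs, with a difference of 1.46 (1.17 to 1.74). Hes1 and Jag1 also lay on opposite sides, with differences of 0.78 (0.54 to 1.01) and 0.57 (0.45 to 0.70). Notch4 differed by 0.23 and Notch1 by 0.07. Per endothelial read, the difference was 1.01 (0.72 to 1.29) for Dll1 and 0.33 (0.09 to 0.56) for Hes1, whereas the intervals of Dll4, Jag1 and Jag2 held 0, and Notch1 and Notch4 turned direction, to -0.38 (-0.44 to -0.31) and -0.22 (-0.29 to -0.15). Counting intervals do not cover the spread between cultures, so a difference between the cell types was not tested.

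Of 46 other genes of the Notch pathway, 41 reached the minimum in skin BECs, and 1 was called higher and 1 lower, where 5.17% and 2.41% of all genes were called. The called-lower gene was Dtx1, an E3 ligase that regulates Notch, which fell 4.86-fold, from 131 reads to 35, with a log2 ratio of -2.28, and the higher one was Hes5, with 0 and 8 reads. In OE-BECs, of 38 that reached the minimum, Dlk2 with 1 and 4 reads and Hes7 with 2 and 7 reads were called higher, and Dner with 5 and 0 lower, where 8.02% and 5.27% of all genes were called. In OE-LECs, again of 38, Notch3 with 0 and 5 reads and Dlk2 with 2 and 14 were called higher and none lower, where 2.77% and 2.09% of all genes were called. The genes called on under 30 scaled counts were named after their values were seen. Medians of the list over genes with at least 30 scaled counts were -0.02, -0.15 and -0.03 on the log2 scale in cKO skin BECs, OE-BECs and OE-LECs, beside -0.02, -0.02 and 0.01 over all genes of that depth.

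Highly read genes of that list included the receptor-cutting protease Adam10 and the ubiquitin ligases Itch and Mib1, of which Mib1 acts on Notch ligands. Adam10 was among the 3 highest in every library, from 184 CPM in OE-BECs to 399.5 CPM in Cont skin BECs. Notch2, the receptor that is no member here, was higher in each changed library, with log2 ratios of 0.62 in cKO skin BECs, 1.21 in OE-BECs and 0.55 in OE-LECs, none past 3-fold. Rbpj, the DNA-binding partner of all Notch receptors, counted 901 reads in Cont and 2846 in cKO skin BECs, a log2 ratio of 1.28, and stood at 0.54 and 0.19 in OE-BECs and OE-LECs. Notch2 and Rbpj were higher in the cKO library together with the 12 macrophage markers, which had a median log2 ratio of 0.72 there, and the part of those cells was not tested. Heyl, the remaining Hey gene, chosen after its values were seen, counted 165 and 163 reads in skin and 0 to 1 in culture.

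Of 11 other arterial genes in the table, none was called in skin BECs, where 5.17% of all genes were called higher and 2.41% lower, and 9 of 11 lay below 0 with a median log2 ratio of -0.56. Nrp1, a VEGF co-receptor, and Efnb2, the arterial ephrin ligand, led the list in skin, and Efnb2 stood at -0.84 in cKO skin BECs. The 7 venous genes also lay below 0, 7 of 7, with a median of -0.79, though not all had an interval off 0. The 12 blood and pan-endothelial markers, a list that shares a gene with the venous one, had a median of -0.66. Over all genes with at least 30 scaled counts the median was -0.02. Lower ratios in the cKO library were thus not limited to arterial genes. In OE-BECs, 3 of the 11 arterial genes fell and 1 rose, where 5.27% of all genes were called lower and 8.02% higher. Fbln5, an elastic fibre protein, fell from 12694 to 1458 reads or 6.68-fold, and Bmx, a tyrosine kinase of arterial endothelium, counted 123 and 2 reads. Gja4, connexin 37, counted 15 and 0, or 3.83-fold lower against a floor of 3 reads. Cxcl12, the ligand of Cxcr4, rose from 873 to 3317 reads or 4.95-fold. The median of that list was -0.89 in OE-BECs and Efnb2 stood at -1.17.

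In OE-LECs, Fbln5 was again lower, from 6441 to 1571 reads or 4.81-fold, and no other of the 11 arterial genes was called, where 2.09% of all genes were called lower and 2.77% higher. The median of the arterial list was 0.06 there, and Efnb2 stood at 0.36. Vwf, the von Willebrand factor gene counted here with the venous list, was called lower in both OE libraries, 4.53-fold in OE-BECs and 3.72-fold in OE-LECs, and no other venous gene was called. Cxcr4, an arterial and tip cell receptor chosen after its values were seen, counted 338 and 297 reads in skin and none in any cultured library. The 11 arterial genes summed to 1855 CPM in Cont skin BECs, 1822 in Cont cultured BECs and 999 in Cont LECs. Near-equal sums in the 2 control BEC libraries hid single genes that differed in both directions. Nrp1 had 812 CPM in Cont skin BECs and 51.2 in Cont cultured BECs, while Fbln5 had 111 and 718.

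The genes closest in pattern to a member were found by Pearson's r of log2(CPM + 1) over the 6 libraries among 11898 genes, as a description of libraries that also differ in tissue and depth. For Dll4 they were Dchs1 (r = 0.995), Hadha (0.994) and Kif26a (0.988), and Dchs1, a protocadherin, counted 4241 and 1130 reads in Cont cultured BECs and OE-BECs and 3037 and 1480 in the LEC libraries. For Gja5 they were Mxd1, Ms4a6c and Gpr21 (0.999 each), for Hey1 Heca, Tet1 and Zfp518a (0.999, 0.999 and 0.998), and for Jag1 Faf2, Micu2 and Btf3l4 (0.997, 0.996 and 0.995). With 6 libraries and 11898 genes, values this high describe likeness only.

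Some members share exonic bases with a gene on the opposite strand, and reads of such pairs cannot be told apart if counting ignored strand. Dll1 shares 867 bases with A930024N18Rik and Notch1 shares 1482 bases with 2 genes, none of which is in the count table. Dll4 shares 214 bases with Gm14207, which counted 8 to 47 reads, and Gja5 shares 165 bases with Gpr89, which counted 165 to 687 reads.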

How the data were processed

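RNA-seq libraries were made with the ScriptSeq v2 kit. Per the study's methods and processing notes, reads were trimmed with skewer 0.2.2, aligned with STAR 2.7.9a to mm10, and counted per gene with VERSE 0.1.5; the gene annotation is not given in the sources used here. The authors deposited raw read counts of 24421 genes in 6 libraries, 1 per group. How VERSE treated strand was not settled here. The members and gene lists were chosen with earlier results of these data known. CPM used each library's total (8863349 to 31032461 reads). For the 3 comparisons, counts were scaled by DESeq2 1.42.0 size factors of the 2 libraries, and the study's threshold was applied, namely more than 3-fold between the scaled counts, with a larger count of at least 5 for cKO and 3 for OE. Scaled counts are called normalized read counts in the study. With 1 library per group no test of a condition was possible, and intervals are exact (Clopper-Pearson for ratios, Poisson for levels, 95%), for counting error only, since reads may include PCR copies. The interval of a difference between ratios came from the 4 counts. Tests of the code on simulated data preceded use. From the Notch pathway, arterial and venous lists, genes were named if called with at least 30 scaled counts or if among the 3 highest of the list in a library, and others are said to be chosen later; not every gene this rule allows is described, and 1 is not reported here. Exon lengths, overlaps and positions are from GENCODE M21, which may differ from the annotation used for counting. Alternatives were TMM factors and edgeR's exact test (4.0.16) at an assumed biological variation of 0.4, total counts, factors of all 6 libraries, no minimum, a minimum of 20, 2-fold, 1 added to each count, longest-transcript lengths and, chosen after the data were seen, the summed reads of 12 endothelial markers. Python 3.11.15 and R 4.3.3 were used.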

Additional observations from a re-analysis of the deposited data

Results flagged for a closer look

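Against their own controls, OE-BECs and OE-LECs lay on opposite sides of 0 for 3 members, each with counting intervals off 0 in both. Dll1 had a log2 ratio of -0.32 in OE-BECs and 1.14 in OE-LECs. Jag1 had -0.29 and 0.28, and Hes1 had -0.51 and 0.26. With 1 library per group, the difference between the cell types was not tested. Scaled to summed endothelial reads, all 3 were above 0 in both cell types, at 0.30 and 1.30 for Dll1, 0.32 and 0.44 for Jag1, and 0.10 and 0.43 for Hes1, of which the 0.10 in OE-BECs had an interval that held 0 (-0.07 to 0.27).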

How the results depend on the processing

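With 4 members called in OE-BECs, 1 (Gja5) was called when counts were scaled to summed endothelial reads. With the exact test of edgeR at an assumed variation of 0.4, 0 were called, but Hey2 had too few reads to be tested. A minimum of 20 scaled counts left 3 (Hey2 lost), and 5 were past 2-fold. With 1 called in OE-LECs, 2 were called with no minimum (Hey1, Hey2), 0 with a minimum of 20 scaled counts, 3 past 2-fold (Dll1, Dll4, Hey1) and 0 with that exact test. In cKO skin BECs the count was 0 under every alternative run. Of 28 member ratios, 14 changed sign under scaling to endothelial reads, a number that the added constant fixes, and 0 of 28 did so with TMM factors, total counts, factors of all 6 libraries or 1 added to each count. Scaling to endothelial reads adds a constant to every ratio, 0.68 in skin BECs, 0.61 in OE-BECs and 0.16 in OE-LECs on the log2 scale. No paired analysis was possible because each group has 1 library, and for the same reason no replicate could be left out. Depth limits Hey1, Hey2 and Gja5 in culture, where they had at most 51 reads.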
